A study of Mus musculus with 6 samples.

Results

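The TRIM (tripartite motif) protein family was followed in cultured mouse sympathetic neurons with and without interferon-gamma. Its members were taken as all genes of the platform annotation whose symbol is Trim followed by a number, with or without a final letter, whatever their values. This gave 57 of the 19087 genes with a value, represented by 103 array features. Each of 3 control arrays and 3 interferon-gamma arrays compared RNA of cultured sympathetic neurons, in the Cy5 dye, with a reference in the Cy3 dye, RNA from sympathetic cervical ganglia taken at postnatal day 5. Control neurons were kept for 24 h without the cytokine, and treated neurons received 500 U per ml of interferon-gamma for 24 h. The labels used here give no genotype or strain, no age of the cultured neurons, and nothing on how many animals or cultures lay behind an array. All values below are log2 ratios of neuron over reference RNA, or differences between such ratios, so they do not compare the abundance of one gene with that of another. In bulk RNA, fewer cells of a type and less RNA per cell cannot be told apart.

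TRIM proteins share an N-terminal part in which a RING domain, found in most members, is followed by B-box and coiled-coil regions. The RING domain transfers ubiquitin, and the C-terminal part, which differs between members, chooses the target. The members with a C-terminal PRY-SPRY domain include many antiviral proteins, several of which are known targets of interferons. Others act on chromatin, on microtubules of neurons or in muscle.

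Interferon-gamma array 2 stood apart from the other treated arrays in markers of dividing cells, glia and fibroblasts. Markers of dividing cells had a median ratio of -2.26 on it, against -0.21 and -0.25 on interferon-gamma arrays 1 and 3 and -2.51 to -1.86 on the control arrays. Glial markers had -1.29 on it, against -0.22 and -0.16, and -0.86 to -0.47 on the control arrays. Fibroblast markers had -1.34 on it, against 0.625 and 0.06, and -0.75 to 0.26 on the control arrays. Control array 2 was the lowest control array in each of these lists. Markers of T and NK cells did not follow this pattern. Their medians were -0.002, 0.28 and 0.26 on treated arrays 1, 2 and 3, and 0.18 to 0.24 on the control arrays. Endothelial markers had -0.51, -0.84 and -0.67 on treated arrays 1, 2 and 3, within the -0.90 to -0.41 of the control arrays. Over all genes treated array 2 correlated with control array 2 at 0.72, and with treated arrays 1 and 3 at 0.61 and 0.68. The 10 measured markers of sympathetic neurons had medians of -0.44 to 0.20 on the control arrays and -0.26 to -0.07 on the treated arrays, near the level of the ganglion. Of 10 macrophage markers 1 rose, against 1.12% of all genes. It was C1qa, a complement subunit made by macrophages, at 1.64 (limma, adjusted p = 0.0288). A positive difference was seen in 8, while Mrc1 and Itgam had -0.46 and -0.42. The medians of the 10 were -0.37 to -0.04 on control arrays. Treated arrays 1 and 3 had macrophage medians of 0.42 and 0.45, and treated array 2 had -0.24.

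Interferon-gamma raised 4 TRIM genes and lowered none. Trim30a, Trim30d, Trim21 and Trim34a rose 4.16-fold to 13.4-fold, and all 4 encode PRY-SPRY proteins. They are 7.02% of the 57 members, against 1.12% of all 19087 genes that rose by the same rule (limma, Benjamini-Hochberg adjusted p under 0.05 over all genes). The other 53 members did not pass. The median difference was 0.02 over the 57 members and 0.01 over all genes, and 30 members had a positive difference. None of the 57 fell, where 0.021% of all genes did, and at an unadjusted p under 0.05 (limma) 11 members were higher and 0 lower, against 5.27% and 2.68% of all genes.

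**Figure D1:**
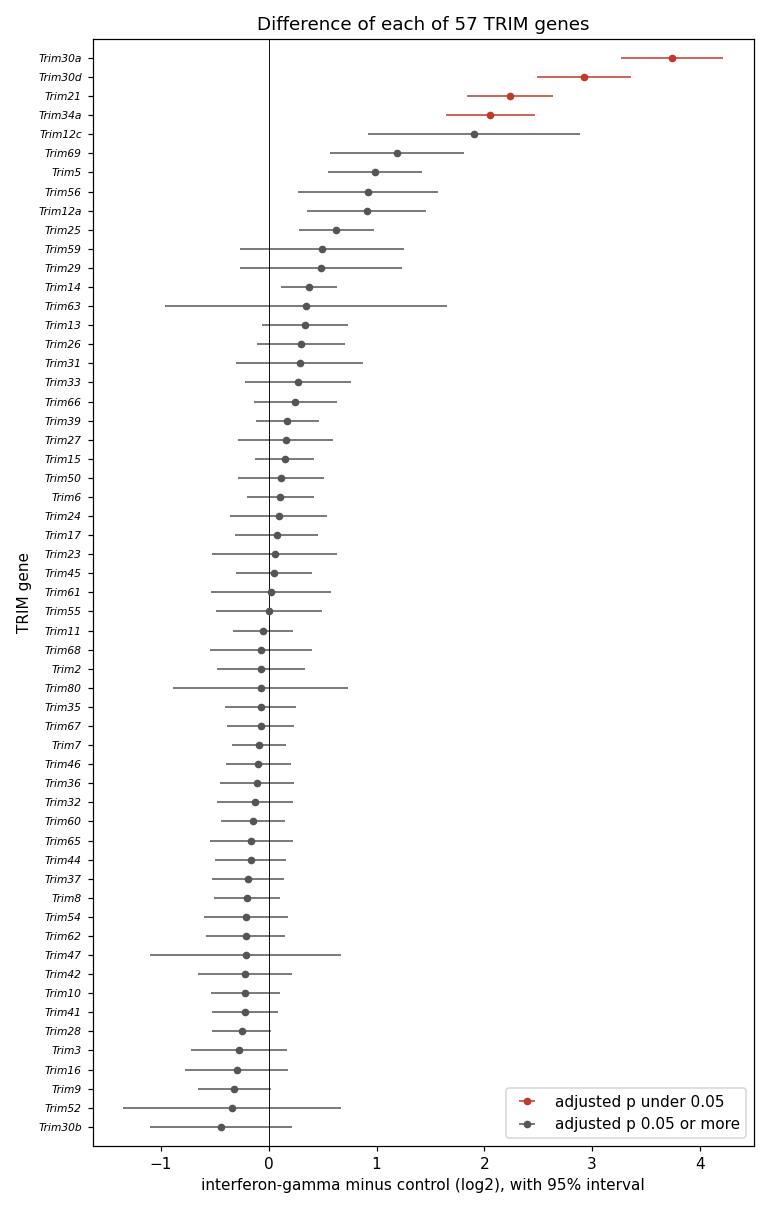
Difference between interferon-gamma and control arrays (x axis, log2) for each of the 57 TRIM genes (y axis, sorted), with points at the estimate and bars for the 95% interval of the limma fit. The 4 red genes that passed stand between 2.06 and 3.74, and 47 of the grey genes lie within 0.5 of 0.

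Trim30a, which in mice restrains signalling from Toll-like receptors to NF-kB, had ratios of 0.07, -0.43 and 0.03 on control arrays 1, 2 and 3. Its ratios on interferon-gamma arrays 1, 2 and 3 were 3.34, 3.79 and 3.76. The groups were thus far apart, and the control neurons lay at about the level of the ganglion. The difference was 3.74 ± 0.20 (SE, n = 3 per group), a 13.4-fold rise with a 95% interval from 9.63 to 18.6 (limma, adjusted p = 0.000496). It was the 46th highest difference of all genes.

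Trim30d is a close relative of Trim30a and lies beside it on the chromosome. It had 0.30, 0.32 and -0.20 on the control arrays and 2.90, 3.11 and 3.20 on the treated arrays. No treated value came near a control value, and the treated arrays lay close together. The rise was 7.60-fold (95% interval 5.62 to 10.3, limma, adjusted p = 0.000694).

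Trim21, the cytosolic receptor for the constant part of antibodies, which sends antibody-coated virus to the proteasome, was above the ganglion on control arrays. Its control ratios were 0.44, 0.77 and 0.39, and its treated ratios were 2.81, 2.56 and 2.96. The groups did not overlap. The rise was 4.72-fold (95% interval 3.59 to 6.22, limma, adjusted p = 0.00153).

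Trim34a is the mouse relative of human TRIM34, which binds retroviral capsids. Control ratios of 0.02, 0.18 and 0.02 stood against treated ratios of 1.83, 2.15 and 2.41, so the control arrays were tight and the treated arrays spread more widely. The rise was 4.16-fold (95% interval 3.12 to 5.54, limma, adjusted p = 0.00284). For scale, Irf1, a direct target of interferon-gamma signalling, rose 4.89-fold in the same fit.

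Among the treated arrays, Trim30a was highest and Trim21 lowest on interferon-gamma array 2. The mean ratio of the 4 risen genes was 2.90 on that array and 2.72 and 3.08 on arrays 1 and 3, against 0.06 to 0.21 on the control arrays. Each of the 4 passed under all 14 alternatives, including each fit that left out 1 array. Of the 10 macrophage markers 4 were higher on every treated array than on every control array, against 8.08% of all genes. These were C1qa, C1qb, Aif1 and Tyrobp, listed after their values were seen. On treated array 2 their ratios were -0.18 for C1qa, 0.23 for C1qb, 0.54 for Aif1 and 0.17 for Tyrobp. In the other markers the groups overlapped. Mrc1 and Itgam differed by -0.46 and -0.42, Cx3cr1 by 0.03, Cd14 by 0.05, Lyz2 by 0.19 and Adgre1 by 0.62. The part of macrophage RNA in the values of the 4 genes was not tested.

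**Figure D2:**
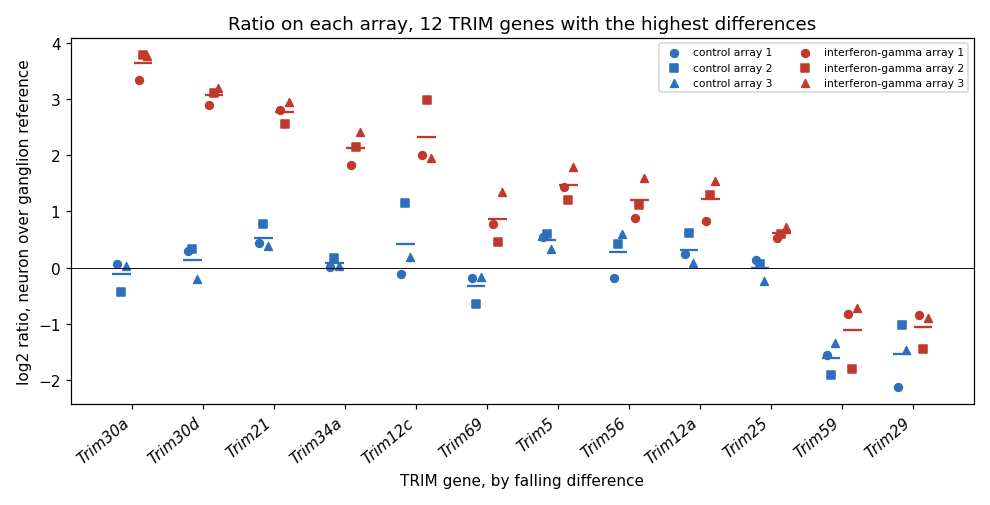
Log2 ratio of neuron over ganglion reference (y axis) on each of the 6 arrays for the 12 TRIM genes with the highest differences (x axis), with control arrays in blue, treated arrays in red, a symbol per array number and a line at each group mean. The treated points of Trim30a, Trim30d, Trim21 and Trim34a lie between 1.83 and 3.79 and the control points between -0.43 and 0.77.

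All 4 risen genes lie on chromosome 7 of the mouse, and 3 of them sit in 1 row of Trim genes. How many of all 57 members lie on this chromosome was not counted. In the RefSeq annotation (GRCm38.p6), used for the order of genes, the row runs from Trim6 through Trim34a, Trim5, Trim12a, Trim34b, Trim12c, Trim30b, Trim30c and Trim30a to Trim30d. It holds 11 protein-coding genes, and 10 of them are Trim genes. Trim34b and Trim30c are not analysed here. Of the 8 measured members of the row 3 rose, and in 6 every treated ratio lay above every control ratio, against 1.12% and 8.08% of all genes. The row was not among the planned comparisons, so these counts only describe it. Of the 49 members outside the row 1 rose, Trim21.

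Trim12c, a mouse relative of human TRIM5 that is known to raise type I interferon signalling, was the highest gene that did not pass. Its control ratios were -0.11, 1.15 and 0.19 and its treated ratios 2.00, 2.99 and 1.96. The groups did not overlap, but control array 2 and interferon-gamma array 2 both stood about 1 above the others of their group. The difference was 1.90 ± 0.41 (SE; 95% interval 0.92 to 2.89; limma, adjusted p = 0.164).

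Trim5, named after the human retroviral restriction factor TRIM5, had control ratios of 0.54, 0.59 and 0.34 and treated ratios of 1.43, 1.20 and 1.80. The difference was 0.98 ± 0.18 (SE; limma, adjusted p = 0.0917). Without interferon-gamma array 2 it was 1.12 and passed (adjusted p = 0.0319), and with array weights it was 1.09 and passed (adjusted p = 0.0405).

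Trim12a had 2 features that disagreed. One gave control ratios of 0.48, 0.83 and 0.36 and treated ratios of 1.84, 2.47 and 2.35, a difference of 1.67, and it passed when features were tested one by one (limma, adjusted p = 0.0251 over 33653 features). The other gave 0.00, 0.40 and -0.20 against -0.18, 0.11 and 0.72, a difference of 0.15. The gene mean of 0.91 ± 0.23 (SE; limma, adjusted p = 0.265) stands between them and describes neither.

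The row was not uniform. Trim6, at 1 end of it, differed by 0.10 (95% interval -0.21 to 0.42), with control ratios of -0.42, -0.51 and -0.71 and treated ratios of -0.51, -0.49 and -0.33. The 5 features of Trim6 ranged from -0.16 to 0.44. In the highest the groups did not overlap, but it did not pass when tested singly (limma, adjusted p = 0.339). Trim30b, which carries a name of the Trim30 group, had the lowest difference of all 57 members, -0.44 (95% interval -1.10 to 0.21; limma, adjusted p = 0.737). Its control ratios of 0.16, -0.10 and 0.75 overlapped its treated ratios of 0.03, 0.03 and -0.57. The upper end of its interval lies far below the lower ends of Trim30a, at 3.27, and Trim30d, at 2.49. Members of this row are similar in sequence, so a feature named for one gene can also bind RNA of another, which the ratios cannot separate.

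**Figure D3:**
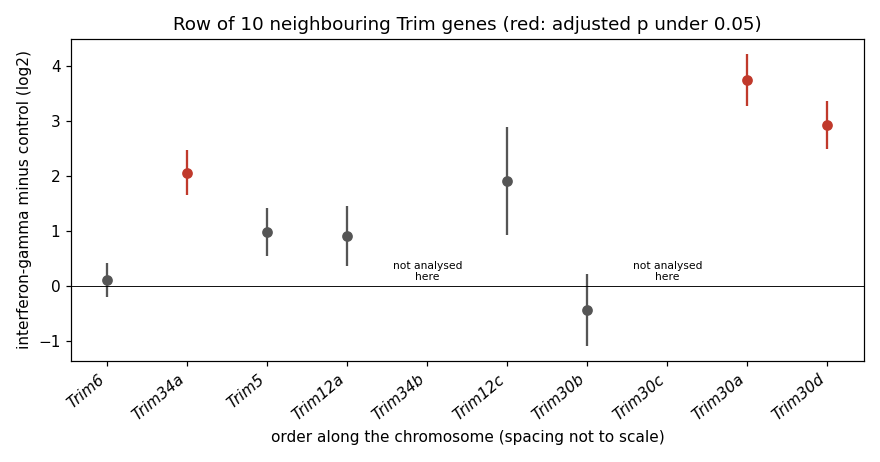
Difference between interferon-gamma and control arrays (y axis, log2, bars for the 95% interval) for the Trim genes from Trim6 to Trim30d in their order along the chromosome (x axis, spacing not to scale). Trim34a, Trim30a and Trim30d, in red, passed, and Trim6 (0.10) and Trim30b (-0.44) lie near or below 0.

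The promoters of these genes show what the neighbours share and where they differ. Promoters of genes that answer interferons are known for a pair of short motifs, the gamma-activated sequence and the interferon-stimulated response element. The letters TTCNNNGAA, their own reverse complement, were searched for the first, and GAAA, any 2 bases and GAAA for the second, on both strands of the 300 bases from 250 before to 50 after each RefSeq gene start (GRCm38.p6). The shortest form of the motifs was used, so a match is a description and not a binding site. The sequences below are the last 150 bases of these windows for the 4 risen genes, for Trim12c and Trim5 from the same row, and for Trim6 and Trim30b, which did not move with them. Each runs 5′ to 3′ on the strand of its gene, with the gene start after base 100, and capitals mark the response-element letters or their reverse complement, TTTC, any 2 bases and TTTC. They lie at chr7:104465144-104465293 (minus strand) for the first of the promoters of Trim30a, at chr7:104507800-104507949 (minus) for Trim30d, at chr7:102565433-102565582 (minus) for Trim21, and at chr7:104244357-104244506 (plus) for Trim34a. Those of Trim12c, at chr7:104353300-104353449, of Trim5, at chr7:104288057-104288206, and of Trim30b, at chr7:104358597-104358746, are on the minus strand, and that of Trim6, at chr7:104218695-104218844, is on the plus strand.
Trim30a: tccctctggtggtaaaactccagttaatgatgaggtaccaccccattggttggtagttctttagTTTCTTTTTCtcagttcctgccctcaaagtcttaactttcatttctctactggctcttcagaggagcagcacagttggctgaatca
Trim30d: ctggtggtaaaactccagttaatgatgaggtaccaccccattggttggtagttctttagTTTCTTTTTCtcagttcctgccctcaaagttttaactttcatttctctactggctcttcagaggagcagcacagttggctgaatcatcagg
Trim21: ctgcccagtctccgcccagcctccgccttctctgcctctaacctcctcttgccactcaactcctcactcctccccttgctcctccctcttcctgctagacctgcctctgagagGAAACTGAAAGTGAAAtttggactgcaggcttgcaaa
Trim34a: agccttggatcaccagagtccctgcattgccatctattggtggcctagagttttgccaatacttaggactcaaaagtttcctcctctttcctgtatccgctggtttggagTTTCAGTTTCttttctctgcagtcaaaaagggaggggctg
Trim12c: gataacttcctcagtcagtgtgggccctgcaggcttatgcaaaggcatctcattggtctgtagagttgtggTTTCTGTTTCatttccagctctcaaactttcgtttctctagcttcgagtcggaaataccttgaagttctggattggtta
Trim5: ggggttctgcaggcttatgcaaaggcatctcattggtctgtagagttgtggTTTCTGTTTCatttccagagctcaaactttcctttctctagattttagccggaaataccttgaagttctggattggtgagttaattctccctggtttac
Trim6: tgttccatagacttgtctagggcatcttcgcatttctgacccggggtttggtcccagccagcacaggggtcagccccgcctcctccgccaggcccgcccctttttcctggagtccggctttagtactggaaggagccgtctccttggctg
Trim30b: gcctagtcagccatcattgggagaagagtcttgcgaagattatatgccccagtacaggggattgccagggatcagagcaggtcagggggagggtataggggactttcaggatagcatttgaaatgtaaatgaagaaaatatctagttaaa

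Trim30a and Trim30d share an identical run of 118 of the 300 bases and hold the same letters TTTCTTTTTC, starting at -36 in Trim30a and -41 in Trim30d. Trim5 and Trim12a share a run of 241 bases, and Trim12c shares a run of 71 with each of them. The first bases of the motif are at -29 in Trim12c and -49 in Trim5. In Trim21 2 overlapping copies start at 14 and 20 bases after the gene start, and in Trim34a 1 copy starts at 11. Neither Trim6 nor Trim30b holds the letters in this window.

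A promoter was found for 44 of the 57 members. The response-element letters were present in all 4 of the risen genes and in 5 of the 40 others, namely Trim12c, Trim5, Trim12a, Trim26 and Trim2. Over all 27025 genes with a promoter in the table, 3.99% hold them. Trim26, an E3 ligase of the antiviral response, holds the letters, and its difference was 0.30 (95% interval -0.11 to 0.71). The letters of the gamma-activated sequence were in 0 of the 4 risen genes and in 4 of the 40 others, namely Trim31, Trim15, Trim45 and Trim46, listed after the search, against 9.55% of all genes. Because the promoters of Trim30a and Trim30d, and those of Trim5, Trim12a and Trim12c, share the runs given above, these counts are not of independent sequences.

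Trim56, which acts on RNA viruses and on signalling from cytosolic DNA, had control ratios of -0.19, 0.42 and 0.60 and treated ratios of 0.89, 1.12 and 1.60. Its difference was 0.92 ± 0.27 (SE; limma, adjusted p = 0.388). Trim69 had -0.19, -0.64 and -0.16 on control arrays and 0.78, 0.45 and 1.34 on treated arrays. The difference of 1.19 ± 0.26 did not pass with all 6 arrays (limma, adjusted p = 0.173), and was 1.39 and just passed without interferon-gamma array 2 (adjusted p = 0.0490).

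Trim25, the ligase that modifies the RNA sensor RIG-I, had control ratios of 0.14, 0.06 and -0.24 against treated ratios of 0.52, 0.60 and 0.73. The difference of 0.63 is a 1.54-fold higher ratio (95% interval 1.21 to 1.96; limma, adjusted p = 0.206), and its 3 features ranged from 0.35 to 0.91. Trim14, an adaptor of RNA sensing at mitochondria, was tight on every array, at 0.12, 0.16 and 0.03 in control and 0.41, 0.52 and 0.50 in treated neurons. Its difference was small, 0.37 ± 0.11 (SE; limma, adjusted p = 0.379). In both genes the groups did not overlap, yet neither passed. Over the family the treated ratios lay wholly above the control ratios in 13 of 57 members and wholly below in 4 (Trim7, Trim60, Trim8 and Trim28, the first pair named after their values were seen), that is 22.8% and 7.02%, against 8.08% and 5.58% of all genes.

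The remaining immune members lay close to no difference. Trim8, a regulator of cytokine signalling, differed by -0.21 (95% interval -0.51 to 0.10) and Trim27, another ligase of the PRY-SPRY class, by 0.16 (-0.28 to 0.60). The treated ratios of Trim8, -0.15, -0.10 and -0.05, lay just below its control ratios of 0.29, 0.03 and 0.00.

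Members were also grouped by the C-terminal part of the protein, from fixed lists of textbook classes. Protein sequences were not read, so a member can be misplaced. The PRY-SPRY class had a median difference of 0.11 and held 29 members. Of these 4 rose and 0 fell, against 1.12% and 0.021% of all genes. At an unadjusted p under 0.05 (limma) 10 of them were higher and 0 lower, against 5.27% and 2.68% of all genes. The other 28 members held 0 that rose and 0 that fell, with a median of -0.08, and 1 of them, Trim56, was higher at an unadjusted p under 0.05. Whether the classes differ was not tested.

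The 4 members with a PHD finger and a bromodomain, which act on chromatin, did not pass, where 1.14% of all genes did. Trim28, the corepressor that silences retroelements with KRAB zinc finger proteins, had control ratios of -0.33, -0.43 and -0.55 and treated ratios of -0.65, -0.70 and -0.71. The groups did not overlap, and the difference was -0.25 (95% interval -0.52 to 0.02; limma, adjusted p = 0.653). Trim24, a nuclear receptor cofactor, differed by 0.09 (-0.36 to 0.54), Trim33, a regulator of SMAD signalling, by 0.27 (-0.22 to 0.77) and Trim66, a relative expressed in testis, by 0.25 (-0.14 to 0.63). The 3 features of Trim24 differed by 0.44, 0.36 and -0.52, and the 3 of Trim66 spanned -0.17 to 1.01, so both means are uncertain.

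Members known from neurons also did not pass, where 1.14% of all genes did. Trim9, which controls axon branching at the growth cone, had control ratios of 0.47, 0.47 and 0.31 and treated ratios of -0.04, 0.32 and 0.00. Its difference of -0.32 (95% interval -0.66 to 0.02; limma, adjusted p = 0.638) was near 0 on interferon-gamma array 2, where the ratio of 0.32 overlapped the control arrays. Trim67, the close relative of Trim9, differed by -0.08 (-0.38 to 0.23). Trim46, which bundles microtubules at the start of the axon, differed by -0.10 (-0.40 to 0.20) and Trim36, another microtubule-binding member, by -0.11 (-0.45 to 0.23).

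The 3 NHL members had differences of -0.28 to -0.07. Trim3, a ligase of postsynaptic sites, was the lowest at -0.28 (95% interval -0.72 to 0.17), Trim32, a regulator of neural progenitors whose human gene is mutated in a muscular dystrophy, stood at -0.12 (-0.48 to 0.23), and Trim2, which maintains axons, at -0.07 (-0.48 to 0.33). Trim37, a ligase of centrosomes and peroxisomes, differed by -0.19 (-0.53 to 0.14). All intervals of the neuronal and NHL members named here lie between -1 and 1, on the scale of the ratios, which can be compressed for dim features.

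None of the 3 muscle members passed, where 1.14% of all genes did in either direction. Trim63, the ligase of muscle atrophy, had control ratios of -0.52, -0.68 and 0.41 and treated ratios of 0.75, -1.10 and 0.58. Both groups covered more than 1 unit, and the interval of its difference ran from -0.97 to 1.65. Trim55 differed by 0.00 (-0.49 to 0.49) and Trim54 by -0.21 (-0.60 to 0.18).

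On the control arrays most of the family had ratios near 0, but each array was centred near 0. Signal was not used, so a ratio near 0 does not show that a gene was expressed. The mean control ratio was within 0.5 of 0 in 49 of 57 members, and the share of all genes was not counted. The highest were those of Trim42, at 1.14 ± 0.26 (SD, n = 3), Trim52, at 0.65 ± 0.89, and Trim21, at 0.53 ± 0.21. Trim42 and Trim21 were above 0 on all control arrays, while Trim52 ran from -0.34 to 1.40. Of the 2 features of Trim52, 1 had control ratios of 0.34, 0.74 and 0.17. The other had -1.01, 1.06 and 2.625, and exact zeros on treated arrays 1 and 2.

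The lowest were Trim59, at -1.61 ± 0.29 (SD, n = 3), Trim29, at -1.55 ± 0.56, and Trim27, at -0.59 ± 0.22. Trim59 is known from dividing cells, and Trim29 from epithelia. The treated ratios of Trim59 were -0.83, -1.80 and -0.72, with array 2 at the control level, and those of Trim29 were -0.84, -1.46 and -0.89. The markers of dividing cells were also lowest on treated array 2, at -0.21, -2.26 and -0.25 on arrays 1, 2 and 3, and their part in these values was not tested. Neither gene passed, with differences of 0.49 (95% interval -0.27 to 1.26) and 0.48 (-0.27 to 1.24).

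Of the 57 members, 28 had 2 or more features, and in 11 of these the features had differences of both signs. The median range between features of a gene was 0.41. Neither value was computed over all genes. The features of the risen genes had 1 sign each. The 2 of Trim30a were at 4.47 and 3.01 and the 3 of Trim34a at 2.75, 1.78 and 1.63, and all 5 passed on their own (limma, adjusted p of 0.00051 to 0.0467 over 33653 features). With features tested singly, 5 members had a feature that passed, the 4 risen genes and Trim12a, and 240 of the 19087 genes had one. Of the 103 member features 8 passed, against 1.01% of all features.

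**Figure D4:**
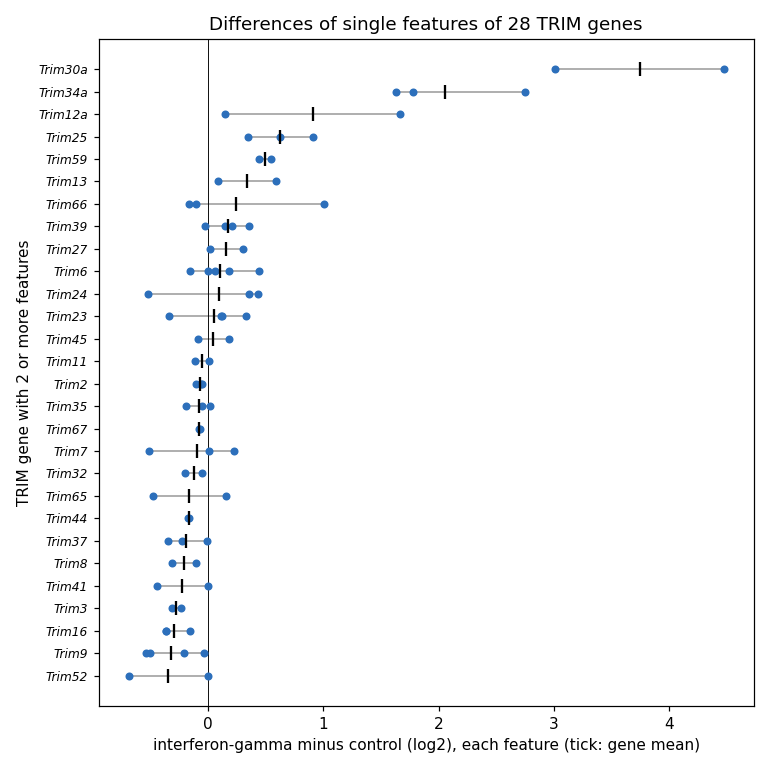
Difference between interferon-gamma and control arrays (x axis, log2) of each feature of the 28 TRIM genes with 2 or more features (y axis, sorted by gene mean), with a point per feature and a tick at the gene mean. All features of Trim30a and Trim34a lie above 1.6, and those of Trim12a lie at 0.15 and 1.67.

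Of 11 relatives of the family that carry other names, 10 were measured, and none rose or fell, where 1.14% of all genes did. At an unadjusted p under 0.05 (limma) 2 were higher and 1 lower, against 5.27% and 2.68% of all genes. Pml, also called TRIM19, the core of antiviral nuclear bodies, had control ratios of -0.06, -0.29 and -0.30 and treated ratios of 0.30, -0.05 and 0.53, a difference of 0.47 (95% interval 0.05 to 0.90; limma, adjusted p = 0.567). The largest difference was that of Bspry, a B-box and SPRY protein, at 0.75 (0.31 to 1.19; limma, adjusted p = 0.244).

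Among 27 measured partners of TRIM ligases in RNA sensing and ubiquitin transfer, 6 rose and none fell, against 1.12% of all genes that rose. The list was chosen with earlier results of these data known, so this count only describes it. Ifih1, the RNA sensor MDA5, rose 9.42-fold and Ddx58, which encodes RIG-I, 4.29-fold. Isg15, the ubiquitin-like modifier, rose 14.7-fold, and its activating enzyme Uba7 and conjugating enzyme Ube2l6 rose 8.37-fold and 2.45-fold. Irf7, a transcription factor of the type I interferon response, rose 6.95-fold. The adjusted p of these 6 lay between 0.00048 and 0.00452 (limma), and Ddx58 did not pass with 1 feature per gene (adjusted p = 0.133). The other 21, which include the ubiquitin enzymes Ube2n, Ube2v1 and Ube2d3 that work with RING ligases and the adaptor Mavs, differed by -0.25 to 0.71. The highest of them was Rnf135, a relative of Trim25 that also modifies RIG-I, at 0.71 ± 0.18 (SE; limma, adjusted p = 0.256).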

How the data were processed

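Each feature of an array has 1 log ratio that the authors deposited, and that the scale is log2 is inferred from values of -9.00 to 10.73. Per the labels, neuron RNA was in Cy5 and the reference in Cy3 with no dye swap, so a dye effect of a gene can stay in its ratio. The direction, neuron over reference, follows the usual red over green convention, under which Irf1 rose. Images were read with Agilent Feature Extraction, per the submitters' processing notes, and its version and the dye normalization are not given in the sources used here. Array medians of 0 to 0.005 show that each array was centred. Signal and background were not used here, so a filter on dim features was not possible, and for dim genes a fold may be too small.

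Of 45220 features, 33653 had 1 gene in the platform annotation, which can be old, and 33517 of these were matched by gene number to RefSeq (GRCm38.p6) for symbols. A gene's value is the mean over its features. The group difference was fitted in R 4.3.3 by the lmFit and eBayes functions of limma 3.58.1, with two-sided p-values adjusted by Benjamini-Hochberg over 19087 genes, at a threshold of 0.05, and the fit was tested on simulated data. Errors are SE of the fit and intervals are at 95%. The labels do not say whether each array had its own culture or animals, so the spread that p-values measure is that of these samples alone and may be technical. Their number, 3 per group, limits the precision.

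Members and lists were chosen with earlier results of these data known. Named genes were all members that passed, those with a difference of 1 or more, fixed members of known roles, the 3 highest and the 3 lowest control ratios, list genes that passed or differed most, and Irf1. Promoters are from RefSeq. Protein sequences were not used here. The alternatives tried were quantile normalization, array weights, a trended robust prior, the median or 1 feature per gene, exact zeros as missing, a filter on low ratios, a replicate block, leaving out each array and testing single features, the last chosen after seeing the data.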

Additional observations from a re-analysis of the deposited data

How the results depend on the processing

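The count of 4 risen TRIM genes ranged from 4 to 6 over the alternatives, and Trim30a, Trim30d, Trim21 and Trim34a passed in all 14 fits. Lowest and highest differences were 3.19 and 4.47 for Trim30a, 2.49 and 3.02 for Trim30d, 1.86 and 2.36 for Trim21 and 1.85 and 2.75 for Trim34a. Leaving out 1 array gave 4 to 6 members and 113 to 508 of all genes, of which 112 to 480 were higher, with the highest counts without interferon-gamma array 2. The 217 genes became 136, 133, 134 and 113 without control array 1, control array 2, interferon-gamma array 1 and interferon-gamma array 3, and the 213 higher ones 135, 128, 130 and 112. Same-numbered arrays of the groups correlated in their deviations across genes with r of 0.064, 0.31 and -0.031, and not every array did so best with its own number, so the numbers were not taken as pairs. With the replicate number as a block, 5 members and 166 genes passed, and Trim12c was the added member (limma, adjusted p = 0.0133). The block changed no call of another member. Trim12a passed with 1 feature per gene, at 1.67 (adjusted p = 0.0274), and Ddx58 did not, at 2.11 (adjusted p = 0.133), where fewer features enter each value. Members near 0 changed sign, all without passing. When 1 array was left out, Trim24 ranged from -0.054 to 0.22 (and -0.012 without control array 2), Trim2 from -0.19 to 0.05, Trim67 from -0.15 to 0.012, Trim55 from -0.20 to 0.11 and Trim52 from -0.84 to 0.028, and array weights gave -0.088 for Trim55. The cause was not tested. With 3 arrays a group, the fit can miss changes of the size of Trim25 or Trim14.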
